A study of Mus musculus with 2 samples.

Results

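The antioxidant, glutathione and pentose phosphate genes are 36 named mouse genes: the transcription factor gene Nfe2l2 (which encodes NRF2) and its partners, the enzymes that make and recycle glutathione, the thioredoxin and peroxiredoxin genes, the enzymes that remove superoxide and peroxide, the pentose phosphate enzymes, glutathione transferases and a few further reductases. They were chosen by name, with earlier results of these data known. Each was read through the array probe that targets a RefSeq transcript of that gene, and the probe with the highest mean log2 signal was taken where a gene had several. All 36 had a probe, out of 20653 genes with a named probe on the array, and 35 were well above background on both arrays.

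The RNA came from M-MDSCs (monocytic myeloid-derived suppressor cells) isolated with a magnetic bead kit from subcutaneous 4T1 tumours. 4T1 is a mouse mammary carcinoma line. All mice were female BABL/c (the strain as spelled in the labels), 6 to 8 weeks old by the study's methods. They were starved for 1 day before injection and carried tumours grown from 1000000 injected cells. Diets were assigned at random. The NSD group ate chow with 0.4% NaCl and drank tap water for 16 days, and the HSD group ate chow with 4% NaCl and drank water with 1% NaCl for the same 16 days. Cells of the mice of a diet were mixed in equal numbers (5 mice with the NSD and 6 with the HSD by the study's legend), so each diet had 1 array, no spread between mice could be computed and no test was possible. The differences below compare these 2 pools of cells.

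NRF2 is held in the cytoplasm by KEAP1, which passes it to a CUL3 ubiquitin ligase for destruction. Oxidants and electrophiles modify KEAP1, and NRF2 then accumulates, pairs with a small MAF protein and binds antioxidant response elements in front of genes for glutathione synthesis, quinone reduction and NADPH supply. Glutathione and thioredoxin are the main thiol reductants of the cell, and both are recycled by reductases that spend NADPH, much of which comes from the oxidative branch of the pentose phosphate pathway. Myeloid cells in tumours live among oxidants, many of which they make themselves.

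The core of the antioxidant response element is written TGACNNNGC, and it was searched on both strands of the RefSeq promoters (assembly GRCm38.p6, 250 bases before to 50 after each annotated start, counting a gene once if any of its starts had a match). Where its free bases read TCA, the motif includes the AP-1 sequence TGACTCA. Promoters were found for 30 of the 36 genes. The motif was present in 10 of these 30 (33.3%), against 14.0% of all 27025 genes with such a promoter. The related form TGAGNNNGC was present in 5 of 30 (16.7%), against 19.8% of all genes. Of the 6 genes that were at least 1.5-fold higher with the HSD, 4 held TGACNNNGC in this window (Gclm, Sod1, G6pdx and Pgd), and Nqo1 and Sod2 did not. Of the other 24 genes with a promoter, 6 held it (Nfe2l2, Txnrd1, Srxn1, Prdx1, Me1 and Mgst1). A match of letters is a description of the sequence, not evidence of binding, and an element outside the window would be missed.

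The first 3 stretches are shown because they belong to genes that were higher with the HSD and hold the motif before the start. They are printed 5′ to 3′ on the strand of the gene, with the motif in capitals. In all 3 the motif runs on the opposite strand, so the capitals are its reverse complement. The motif begins 134 bases before the start of Gclm, 56 before that of Sod1 and 57 before that of G6pdx.
Gclm, chr3:122245403-122245451, plus strand: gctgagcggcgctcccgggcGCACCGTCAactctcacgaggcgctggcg
Sod1, chr16:90220686-90220734, plus strand: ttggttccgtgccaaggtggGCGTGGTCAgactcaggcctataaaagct
G6pdx, chrX:74428909-74428957, minus strand: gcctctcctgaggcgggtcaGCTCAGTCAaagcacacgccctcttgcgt

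The next 4 hold the same motif in front of genes that did not pass 1.5-fold. In Nfe2l2 it lies on the strand of the gene itself, 240 bases before the start, and in Txnrd1, Prdx1 and Mgst1 on the opposite strand, 92, 133 and 56 bases before it.
Nfe2l2, chr2:75704875-75704913, minus strand: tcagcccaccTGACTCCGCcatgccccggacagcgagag
Txnrd1, chr10:82859094-82859142, plus strand: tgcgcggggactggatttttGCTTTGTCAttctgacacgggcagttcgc
Prdx1, chr4:116685446-116685494, plus strand: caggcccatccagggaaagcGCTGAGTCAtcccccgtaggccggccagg
Mgst1, chr6:138140451-138140499, plus strand: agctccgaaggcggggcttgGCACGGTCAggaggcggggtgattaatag

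With the HSD, 6 of the 35 genes above background were at least 1.5-fold higher and none was 1.5-fold lower. In order of size they were Nqo1, Gclm, Sod2, G6pdx, Sod1 and Pgd. This is 17.1% of the 35, where the shares past 1.5-fold among all 16312 usable genes were 9.86% on the higher and 10.3% on the lower side. Most of these genes gave a strong signal, so they were also set against bright genes. Above the 75th percentile of signal on both arrays, 5 of 32 members were at least 1.5-fold higher (15.6%) and none lower, against 7.63% higher and 5.94% lower of all 6078 such genes. The counts are small, and with 1 array per diet they describe these arrays. The list was also chosen with earlier results of these data known, so the shares do not compare a blind choice. Pgd and Sod1 lay close to the threshold and fell below it under several other ways of normalizing, which leave 4 genes higher (Nqo1, Gclm, Sod2 and G6pdx).

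Signal here is the processed intensity of a probe on an array, and log2 fold changes were taken as HSD over NSD once the 75th percentile of each array (252 units with the NSD and 233 with the HSD) had been subtracted on the log2 scale. This scaling raises every HSD value by 0.11 relative to the raw ratio. The log2 fold changes of the 35 genes ran from -0.54 to 1.55 with a median of 0.16, beside a median of 0.045 over all genes. Of the 35, 25 lay above 0 (71.4%), against 54.2% of all genes. Of the 25, 5 changed sign under some other ways of processing (Nfe2l2, Keap1, Gpx4, Taldo1 and Msra). Signals of different probes are not comparable as levels, so each gene, and each sum over a list of markers, is compared only between the 2 arrays.

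**Figure D1:**
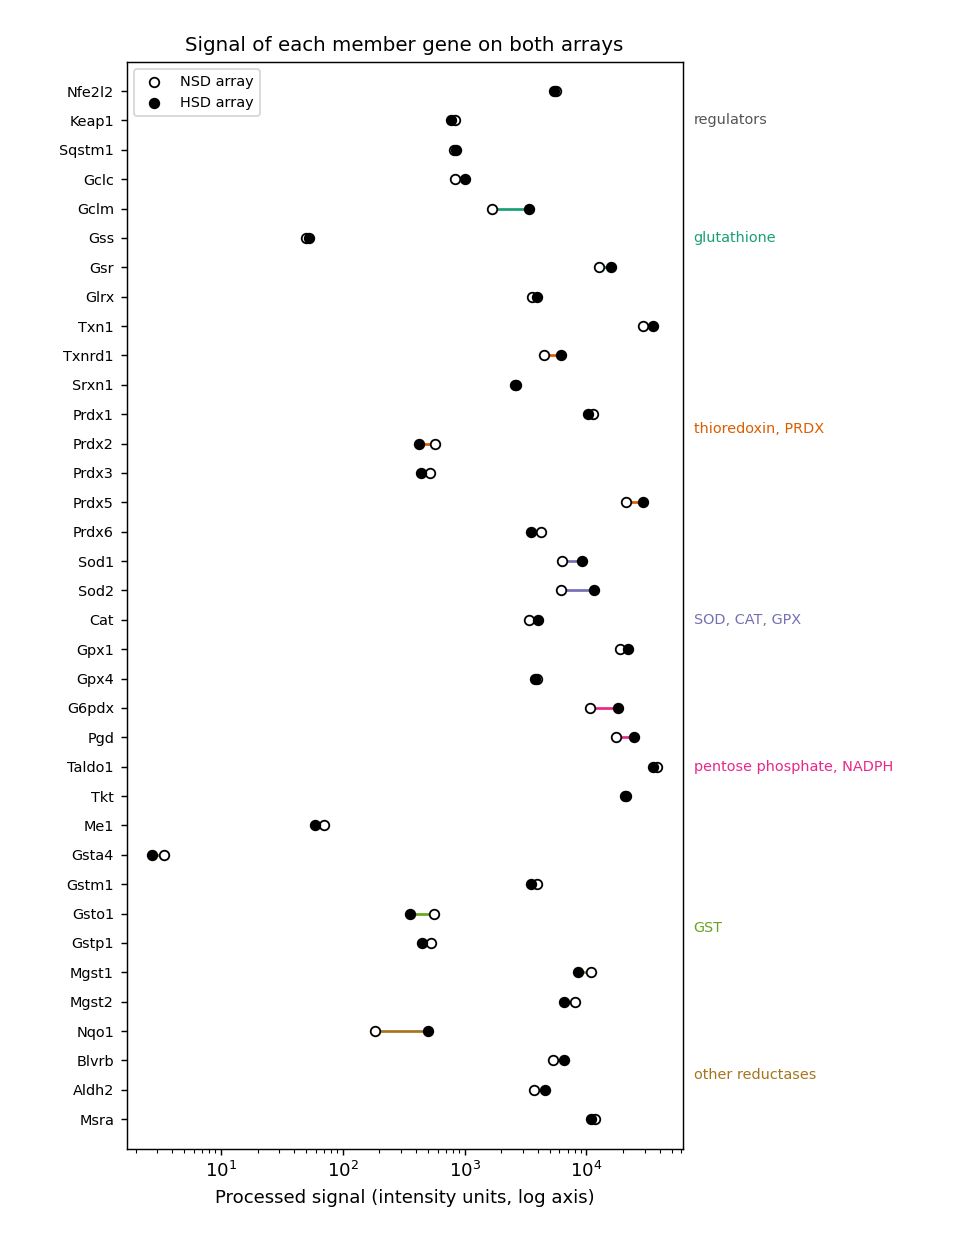
Processed signal (intensity units, log axis) of the chosen probe of each of the 36 genes on the NSD array (open) and the HSD array (filled), grouped by role, with a coloured line joining the 2 arrays. The longest lines belong to Nqo1 (184 to 498 units) and Gclm (1665 to 3400.3), while Nfe2l2, Keap1, Taldo1 and Tkt have their points close together, and Gsta4 lies at the background.

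The regulators barely differed between the diets. Nfe2l2 gave 5647 units with the NSD and 5390 with the HSD (log2 fold change 0.047), and Keap1, the gene of its inhibitor, 829.6 and 775 (0.016). Under other normalizations Nfe2l2 ran from -0.063 to 0.073 and Keap1 from -0.052 to 0.023, so neither has a settled direction. Sqstm1, which encodes the autophagy adaptor p62 that can draw KEAP1 away from NRF2, went from 825 to 848 units (0.15). NRF2 is controlled mainly at the level of its protein, which was not measured on these arrays.

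All 5 genes of glutathione synthesis and reduction lay above 0, as did 54.2% of all usable genes. Only 1 of them passed 1.5-fold, where 9.86% of all usable genes were higher by as much. Gclm, the modifier subunit of glutamate-cysteine ligase (the rate-limiting enzyme of glutathione synthesis), went from 1665 to 3400.3 units, 2.21-fold after scaling (log2 fold change 1.14). Gclc, the catalytic subunit of the same enzyme, went from 837 to 1009.6 (0.38). The 2 subunits were therefore both higher, with the difference of the modifier subunit the larger. Gsr, which reduces oxidized glutathione with NADPH, had 2 probes that gave 12567 to 15969.6 units (0.46) and 10255 to 13729 (0.54). Glutaredoxin (Glrx, 3579 to 3947, 0.26) and glutathione synthetase (Gss, 49.9 to 52.4, 0.19) differed less.

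The thioredoxin and peroxiredoxin genes were split, with 4 above 0 and 4 below. None passed 1.5-fold, where 9.86% of all usable genes were higher and 10.3% lower. On the upper side lay thioredoxin itself (Txn1, 29071 to 35415 units, log2 fold change 0.40) and its NADPH-dependent reductase (Txnrd1, 4494 to 6127, 0.56). Txnrd1 was 1.48-fold higher, the gene nearest to the threshold from below, as Pgd was from above. Prdx5, a peroxiredoxin of mitochondria and peroxisomes, went from 21298 to 28923 (0.56), and sulfiredoxin (Srxn1), which repairs over-oxidized peroxiredoxins, from 2576 to 2658 (0.16). The other peroxiredoxins did not share this direction. Prdx2, the cytosolic form abundant in red blood cells, was 569 with the NSD and 420.4 with the HSD (-0.32), and mitochondrial Prdx3, measured over 10 spots on each array, 521 and 442 (-0.12). Prdx1 gave 11357 and 10257 (-0.033) on its brightest probe and -0.43 on a dimmer one. The probes of Prdx6 went in both directions: its brightest gave 4199.8 and 3526 units (-0.14), and the next brightest gave 0.22 and 0.31. Its dimmest probe, at 3.72 and 7.17 units, was above background only with the HSD. There the bound was 0.75, past 1.5-fold on the higher side.

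The genes that remove superoxide and peroxide all lay above 0, as did 54.2% of all usable genes. Of these 5 genes 2 passed 1.5-fold, beside 9.86% higher over all usable genes. Sod2, the manganese superoxide dismutase of mitochondria, went from 6196 to 11558.5 units (2.02-fold), and Sod1, the copper-zinc enzyme of the cytosol, from 6351 to 9153 (1.56-fold, log2 fold change 0.64). Sod2 is also a well known NF-κB target, while Sod1 is expressed in nearly every cell. Catalase, which splits hydrogen peroxide in peroxisomes, had probes on both sides of the threshold: the brighter went from 3345 to 4020.1 (0.38) and the dimmer from 168 to 235 (0.60). Glutathione peroxidase 1 (Gpx1) went from 18899.8 to 21950.1 (0.33), and Gpx4, which reduces lipid hydroperoxides in membranes and guards against ferroptosis, from 3903 to 3756 (0.059, with its sign turned in 3 of 10 other ways of processing).

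Of the 5 pentose phosphate and NADPH genes 2 passed 1.5-fold, beside 9.86% of all usable genes on the higher side. Both encode dehydrogenases of the oxidative branch. G6pdx encodes glucose-6-phosphate dehydrogenase, the first and rate-limiting step and a source of NADPH. It went from 10665.5 to 18138 units, 1.84-fold (log2 fold change 0.88). Pgd, the second NADPH-forming dehydrogenase of the oxidative branch, went from 17556 to 24403 (1.505-fold, 0.59). Pgls, the lactonase between these steps, is no member and gave 227 and 203.7 (-0.042). In the non-oxidative branch the values were near 0, with Taldo1 (transaldolase) at 38075 and 35285 units (0.0045) and Tkt (transketolase) at 20656.5 and 21234 (0.15). Me1, the malic enzyme, is another source of cytosolic NADPH. It was dim, at 69.6 and 59.2 units (-0.12), and its other probes gave 0.015 and 0.10.

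The glutathione transferases were the only one of the 7 roles in which every usable gene lay below 0. This role has only 5 usable genes, and 54.2% of all usable genes lay above 0. These enzymes couple glutathione to electrophiles. Gsto1 was 564 with the NSD and 358 with the HSD (log2 fold change -0.54), the lowest value among the 35 genes, and it passed 1.5-fold under cyclic loess and on the authors' deposited values. The rest were closer to 0. Mgst1, the microsomal form, gave 10835 and 8558 units (-0.23) on its brighter probe and 7269 and 7599 (0.18) on the other, so its direction depends on the probe. Mgst2 gave 7975 and 6570.5 (-0.17), Gstp1 528 and 444 (-0.13) and Gstm1 3961 and 3535 (-0.050). Gstp1 has the near-identical neighbour Gstp2, and probes of the mu class can share targets in the same way, so these readings may not be separate. Gsta4 was not above background on either array, at 3.38 and 2.72 units.

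Among the remaining reductases, Nqo1 showed the largest difference of all 36 genes. It encodes NAD(P)H quinone dehydrogenase, often used as a readout of NRF2 activity, and its signal went from 184 to 498 units, 2.93-fold (log2 fold change 1.55). Biliverdin reductase B (Blvrb, 5351 to 6542, 0.40) and mitochondrial aldehyde dehydrogenase (Aldh2, 3703 to 4555, 0.41) were also higher, and methionine sulfoxide reductase A (Msra) gave 11831 and 10949.6 units (0.0026).

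**Figure D2:**
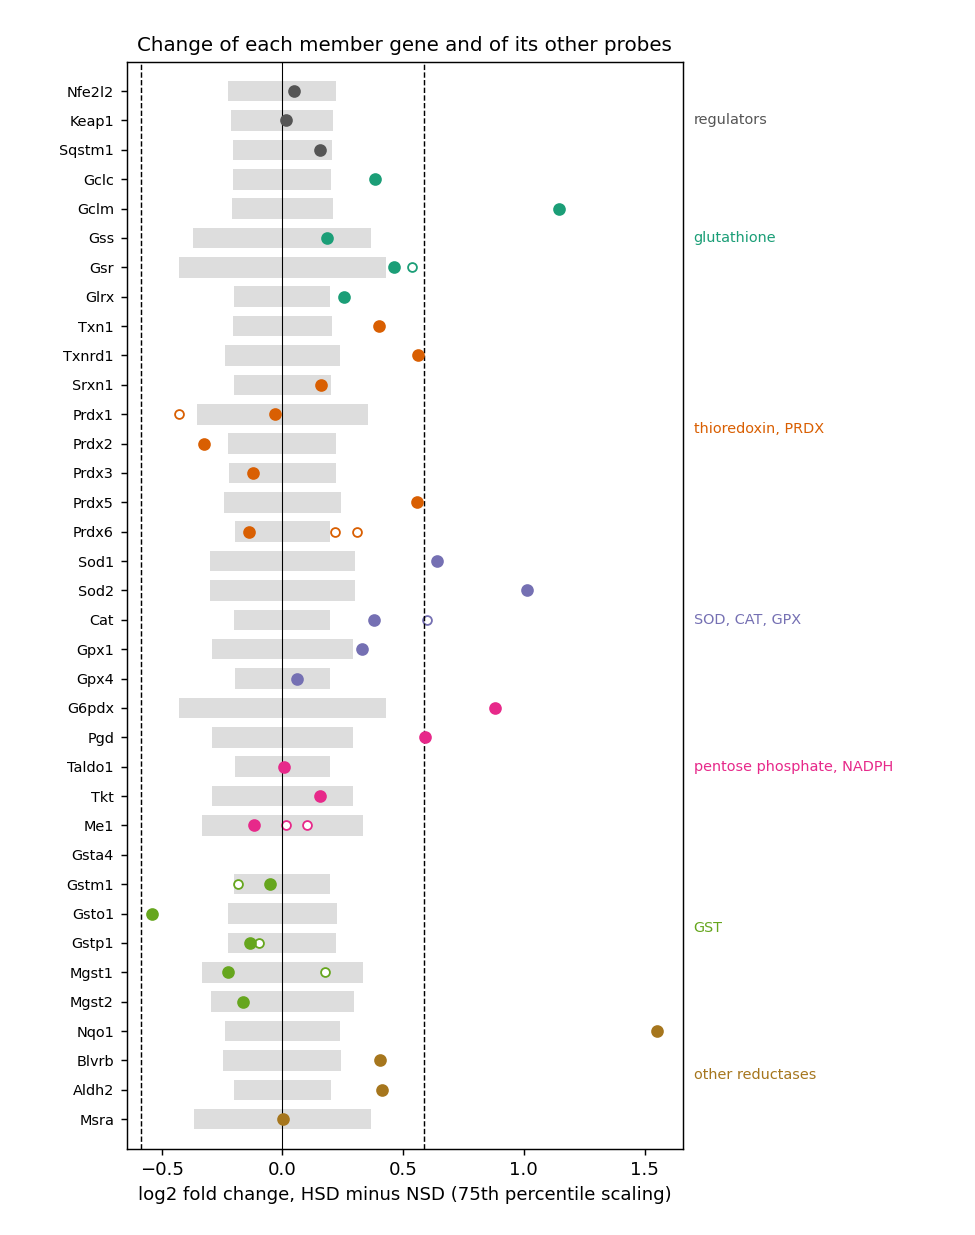
Log2 fold change (HSD minus NSD after scaling on the 75th percentile) of each gene (filled points) and of its other probes above background on both arrays (open points). Grey bars span the 95th percentile of differences between spots of the same probe at a like signal, and dashed lines mark 1.5-fold. Of the 35 genes 18 lie outside their grey bar, 16 of them on the higher side, and Gsta4 has no point.

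The only error that these arrays can give is that between spots of the same probe on the same array. Most members, 34 of 36, had a chosen probe with a single spot, so this was taken from the 306 probes with several spots. Their median spot SD was 0.084 on the log2 scale. The 95th percentile of the difference between spots of a probe, taken at the signal of each gene, lay between 0.20 and 0.43. For each gene it rests only on those probes within 1 log2 unit of its signal, from 4 for Taldo1, 7 for Pgd and 11 for G6pdx to 73 for Nqo1. Single pairs of spots differed by up to 1.84 at the signal of Gclm and 1.51 at that of Sod2, more than the changes of these genes. Beyond it lay 18 of the 35 genes, 16 higher (among them all 6 past 1.5-fold) and 2 lower, Prdx2 and Gsto1. Over all genes with such a comparison, 40.8% lay beyond it, 21.9% higher and 19.0% lower. Spot noise leaves out the spread between mice, cell isolations and labelling reactions. Where a gene had several probes above background, 5 of 8 genes had the same sign on all of them, the exceptions being Prdx6, Me1 and Mgst1.

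**Figure D3:**
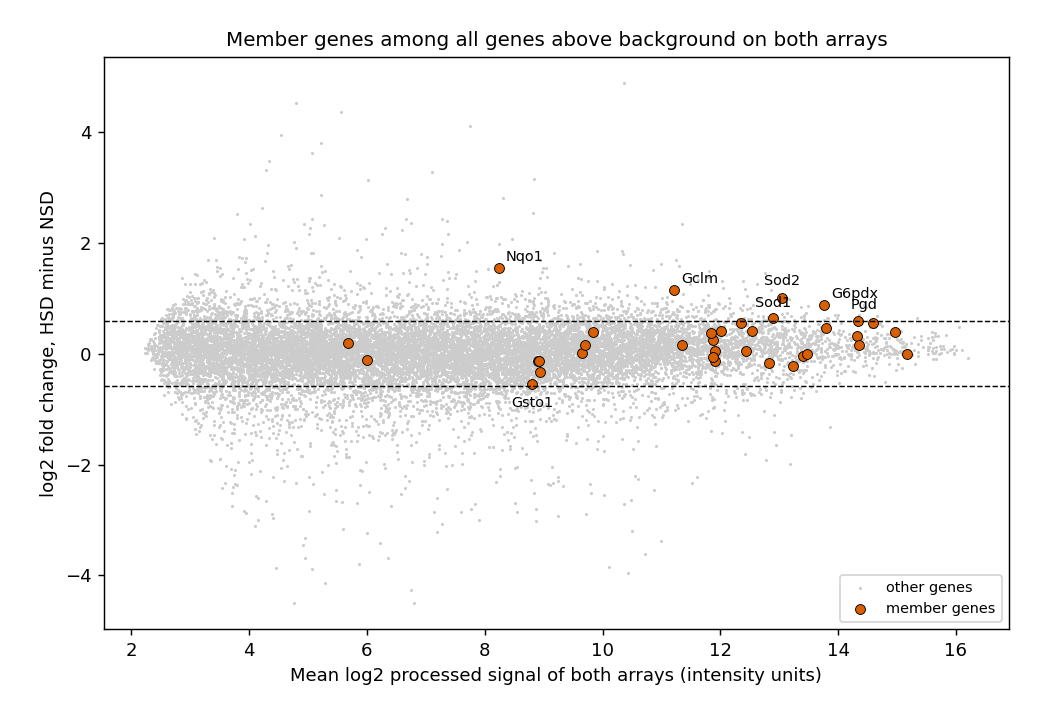
Log2 fold change (HSD minus NSD) against the mean log2 processed signal of both arrays, for all genes above background on both arrays (grey) and the 35 member genes (orange). Dashed lines mark 1.5-fold. The labelled genes Nqo1, Gclm, Sod2, G6pdx, Sod1 and Pgd lie above the upper line, no member lies below the lower one, Gsto1 comes nearest to it, and most members sit among the brighter genes.

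The wider pathway was read through 129 further genes in 8 lists. The lists, like the members, were chosen with earlier results of these data known. Of the 129 genes, 126 had a probe and 123 were usable. They did not move as a block: 14 passed 1.5-fold on each side (11.4% higher and 11.4% lower), 59 lay above 0 and 64 below, and the median was -0.026. Both shares were near those of all usable genes, 9.86% higher and 10.3% lower. The lists differed among themselves.

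The further NRF2 targets lay mostly on the higher side, with 12 of 16 above 0, 5 at least 1.5-fold higher, none lower and a median of 0.23. Among all usable genes 54.2% lay above 0, 9.86% were at least 1.5-fold higher and 10.3% lower. Slc7a11 encodes the cystine importer that feeds glutathione synthesis, and went from 523 to 1754.4 units (log2 fold change 1.86), more than any of the 36 members. Next came the glutathione conjugate exporter Abcc1 (336 to 621, 1.00), the iron-binding nuclear protein gene Pir (104 to 181, 0.91), Osgin1 (1951 to 3067, 0.77) and the carbonyl reductase gene Cbr3 (856 to 1244, 0.65). Heme oxygenase 1 (Hmox1) went from 3807 to 4473 (0.35) and did not pass 1.5-fold.

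Of 9 usable partners, repressors and ligase genes of NRF2, 3 were at least 1.5-fold higher and none lower, beside 9.86% and 10.3% of all usable genes. Maff, a small MAF partner, went from 37.4 to 75.8 units (log2 fold change 1.13), Cul3, the scaffold of the ligase that destroys NRF2, from 1362 to 1921 (0.61), and Nfe2, a relative of NRF2 in blood cells, from 8222 to 11579 (0.61). Bach1, the repressor that competes with NRF2 for the same elements, went from 3205 to 3633 (0.30). Maff and Pir were picked for display because both were at least 1.5-fold higher and held TGACNNNGC. It begins 112 and 214 bases before their starts, on the same and the opposite strand in turn. Among all further genes with a promoter the motif was present in 22 of 109 (20.2%). These include Ggct, Ggt1 and Prnp, which were at least 1.5-fold higher, and genes that were not, such as Blvra (-0.25) and Rbks (-0.41). Slc7a11, the further gene with the largest rise, held only TGAGNNNGC.
Maff, chr15:79346489-79346537, plus strand: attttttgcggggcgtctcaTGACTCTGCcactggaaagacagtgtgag
Pir, chrX:164269197-164269245, plus strand: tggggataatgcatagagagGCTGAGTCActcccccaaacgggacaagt

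Glutathione metabolism outside the members went both ways, with 3 genes at least 1.5-fold higher and 4 lower of 17 (9.86% and 10.3% over all usable genes). Oplah, the oxoprolinase, went from 29.3 to 54.4 units (log2 fold change 1.01), the gamma-glutamyltransferase gene Ggt1 from 68.2 to 115 (0.87) and the cyclotransferase gene Ggct from 358 to 555 (0.75). The other usable Ggt, Chac and Dpep genes of this list went both ways without passing 1.5-fold. Ggt5 gave 502 and 363 units (-0.35) and Chac2 -0.12. Chac1 (0.12), Ggt6 (0.37), Dpep2 (0.52) and Dpep3 (0.11) lay above 0. Lower were the cell surface peptidase Anpep, with 2762 and 772 units (-1.72), the neutral amino acid transporter Slc1a4 (1111 and 570.5, -0.85), the leucine aminopeptidase Lap3 (408 and 235, -0.68) and Cth, which makes cysteine from cystathionine (17.2 and 10.5, -0.60). Anpep is also a surface marker of myeloid cells.

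Most calls in the other lists were on the lower side, but the lists are small. Over all usable genes 10.3% were at least 1.5-fold lower and 9.86% higher. Of 14 further thioredoxin genes none was higher and 2 were lower, the endoplasmic reticulum peroxiredoxin Prdx4 (329 and 167 units, log2 fold change -0.86) and the iron-sulfur cluster factor Glrx3 (956 and 498, -0.82). Txnip, which binds and inhibits thioredoxin, went from 1517 to 1920 (0.45). Among 20 further peroxidase, dismutase and oxidation response genes 2 were higher and 3 lower. The prion protein gene Prnp went from 337 to 705 (1.18), and the methionine sulfoxide reductase gene Msrb3 was above background only with the HSD. The selenoprotein genes Selenop (6186 and 2169, -1.40), Selenow (601 and 228, -1.28) and Gpx3 (120.2 and 72.2, -0.62) were lower. Of the 10 selenoprotein genes among the members and further lists, none was higher, 3 were lower and the median was 0.029. Selenoprotein genes outside these lists were not read.

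For NADPH, the mitochondrial folate enzyme Mthfd2 was the only further gene at least 1.5-fold higher (139 to 214 units, log2 fold change 0.73), and the mitochondrial dehydrogenases Idh2 (1393 and 530, -1.28) and Me3 (13.1 and 7.78, -0.64) were lower, out of 16. The shares over all usable genes were 9.86% higher and 10.3% lower.

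Of 19 further glutathione transferase genes none was at least 1.5-fold higher and Gstk1 was lower (117 and 67.3 units, log2 fold change -0.68), against 10.3% lower over all genes. Of the 19, 12 lay below 0 and 7 above, with a median of -0.22. The 19 include Alox5ap, the gene of the 5-lipoxygenase activating protein, which is not itself a transferase. It gave the highest value of the list (0.54). Over members and further genes, with Alox5ap counted, 17 of 24 lay below 0, with a median of -0.21. Many of these probes were dim and members of the family resemble each other in sequence. Of 12 further aldehyde dehydrogenase and quinone reductase genes none was higher, Aldh1b1 (30.2 and 11.8, -1.24) and Aldh7a1 (165 and 96.7, -0.66) were lower, and the median was -0.35.

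**Figure D4:**
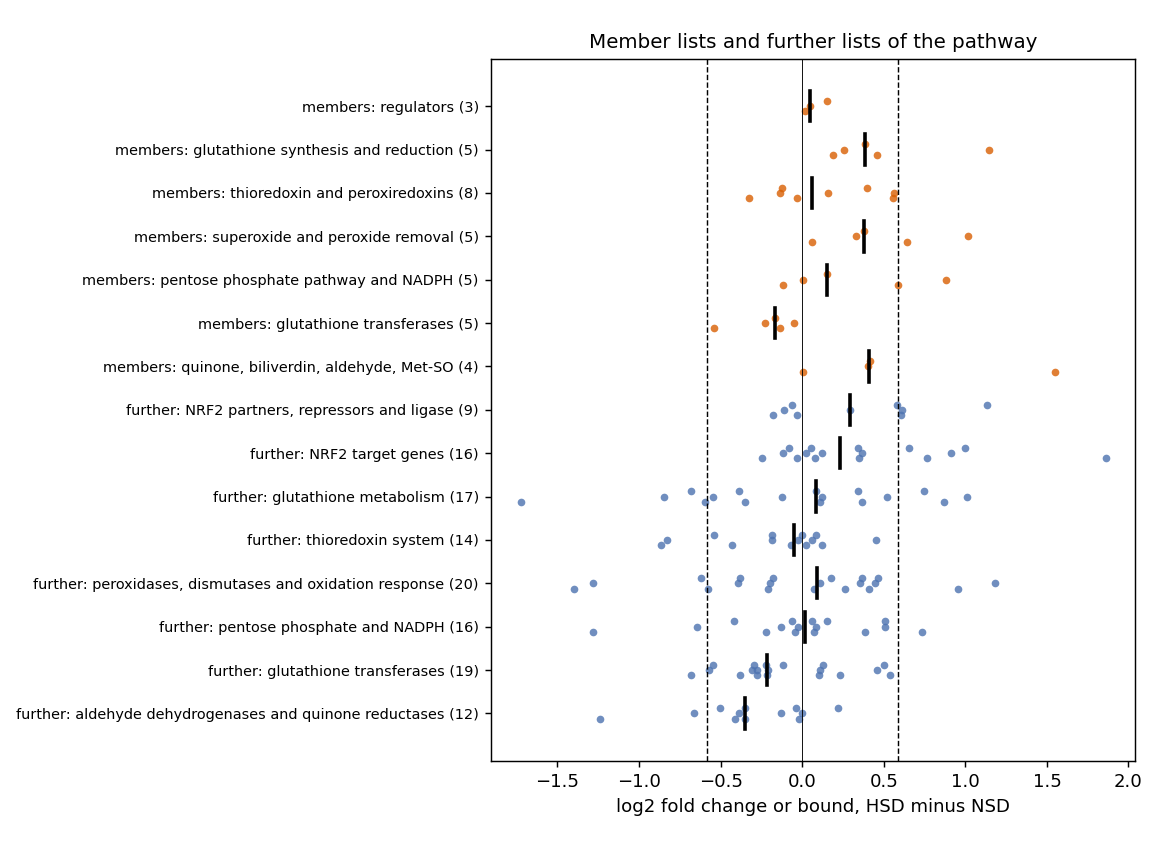
Log2 fold change or bound (HSD minus NSD) of each usable gene in the 7 role lists of the members (orange) and the 8 further lists (blue), with the number of usable genes in brackets, black bars at the median and dashed lines at 1.5-fold. Glutathione synthesis, superoxide and peroxide removal and the further NRF2 targets have medians of 0.38, 0.38 and 0.23. Both lists of glutathione transferases, the aldehyde dehydrogenases and the further thioredoxin genes (-0.047) have medians below 0.

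The composition of the cell pools bears on these values, because in bulk RNA fewer cells of a type and less RNA per cell cannot be told apart. Itgam was bright on both arrays (31564 and 31043 units, log2 fold change 0.090), as was Ly6c1 (51811 and 48478, 0.018). Other markers of monocytic MDSCs and monocytes differed. Fcgr1 was 305 with the NSD and 21.9 with the HSD (-3.68), Ccr2 259 and 139 (-0.78) and Cd14 2337 and 3804 (0.82). Over the 9 measured, 1 was at least 1.5-fold higher and 2 were lower (9.86% and 10.3% over all usable genes), with a median of 0.018 and summed signals of 109585 and 105215 units. Such sums are ruled by the brightest probes. All of them, here and in the next paragraph, are of unscaled signals, and the scaling would raise each HSD sum by 0.11 in log2. A slightly lower HSD sum is therefore not a fall. The sums set the 2 arrays side by side within a list and do not show how common a cell type was. Neutrophil markers were bright too: all 11 measured were above background, with summed unscaled signals of 375243 and 362104 units and a median of 0.069, although the kit was used to obtain monocytic cells. Of the 11, 1 passed 1.5-fold and was lower. The part of neutrophils or granulocytic MDSCs in the values above was not tested.

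Macrophage markers did differ. Of 7 measured, 5 were at least 1.5-fold lower with the HSD and none higher, with a median of -1.36. Over all usable genes 10.3% were lower and 9.86% higher. Their summed signals were 14188 and 8678 units, mostly from Apoe and Adgre1. Mrc1 was 134 with the NSD and 5.49 with the HSD (log2 fold change -4.50), C1qc 52.6 and 5.61 (-3.11), Mertk 95.9 and 15.4 (-2.52), Apoe 7119 and 4337 (-0.60) and Adgre1 6723 and 4252 (-0.55), while C1qb gave 50.4 and 58.4 (0.33). C1qa was above background only with the NSD, at least 2.56-fold higher there. The lower signals of Selenop and other genes named above stand beside this shift, and its part in them was not tested. For erythroid cells, 7 of 10 markers were above background, 1 was 1.5-fold lower, the median was -0.13 and the summed signals were 28243 and 24863 units. Its part in the lower value of Prdx2 was not tested. Carcinoma markers summed to 144 and 150.2 units, with 3 of 7 at least 1.5-fold higher with the HSD, all of them dim. Fibroblast markers summed to 333 and 328 units, with 1 of 6 at least 1.5-fold higher and 2 lower. Endothelial markers summed to 289.9 and 313, with none of 5 past 1.5-fold. T and NK cell markers summed to 2661 and 2969, with 1 of 7 lower and none higher, and B cell markers to 6131 and 7134. All 5 B cell markers lay above 0, with a median of 0.40, and none passed 1.5-fold.

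**Figure D5:**
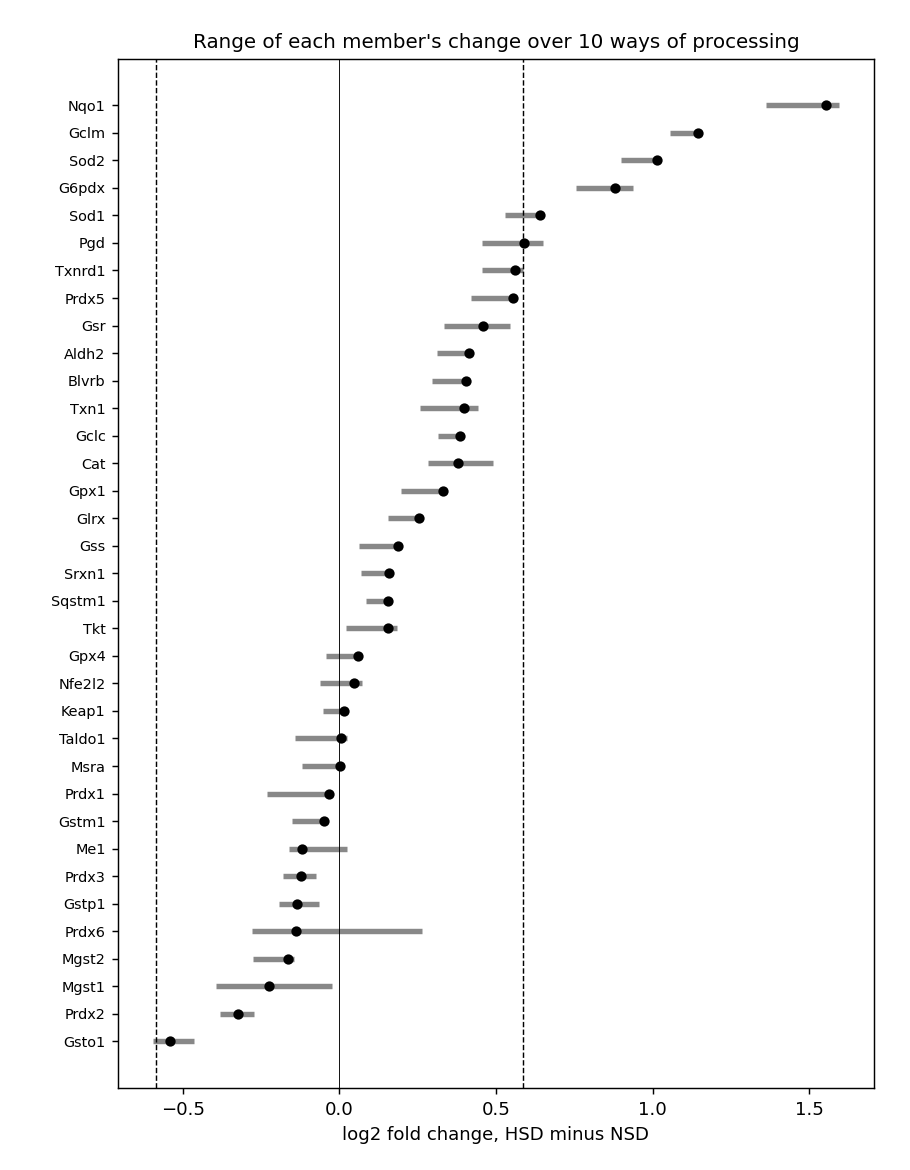
Log2 fold change of each usable gene as reported (points) and its range over 10 other ways of processing the same arrays (bars), in order of size, with dashed lines at 1.5-fold. Nqo1, Gclm, Sod2 and G6pdx lie above 1.5-fold throughout, the bars of Sod1, Pgd and Txnrd1 cross that line, that of Gsto1 crosses the lower one, and those of Nfe2l2 and Keap1 span 0.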

How the data were processed

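RNA pools from the NSD and HSD groups were each measured on 1 one-colour Agilent mouse array. The authors deposited processed signals, which are background-corrected intensities written by Feature Extraction 11.0.1.1, and a table of normalized log2 values made with GeneSpring GX (the normalization algorithm is not given in the sources used here). Both columns of that table have nearly the same distribution (sorted values differ by at most 0.052).

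Here control spots and spots marked as outliers were left out, log2 signals of the spots of a probe were averaged, and each array's 75th percentile was subtracted. A probe was above background when at least 50% of its spots were. Where this held on 1 array only, a bound against the lowest detected signal was used. The threshold of 1.5-fold was the one the study used for its array. No spot was saturated, 71.9% and 72.4% of probes were above background with the NSD and HSD, and no value column was left unused. Transcript identifiers, taken without versions, matched RefSeq (GRCm38.p6) for 27223 of 39413 probes (69.1%). The array's own annotation is of an older assembly, so gene coordinates are given only for promoters. With 1 array per diet no p-value exists, and precision is limited by the number of arrays.

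All members were described. Of the further genes, those past 1.5-fold and above background on both arrays were named, up to 5 per list, with Hmox1, Slc7a11, Bach1 and Txnip. Of the markers, Itgam, Ly6c1 and lists with a median beyond 0.58 were named. Pgls, Ggt5, Ggt6, Chac1, Chac2, Dpep2, Dpep3, Msrb3, Blvra, Rbks, Alox5ap, Fcgr1, Ccr2 and Cd14 were added after their values were seen. The members and lists were chosen with earlier results of these data known. The alternatives were normexp background correction (on median spot signals, offset 50), quantile normalization, cyclic loess, scaling on the median or on the 75th percentile of detected probes, the deposited values, a stricter or no filter on dim probes, outlier spots kept, the median over probes and a 2-fold threshold. The code that makes the calls was checked on simulated data with changes well past 1.5-fold and little noise. That check does not measure error near 1.5-fold or between mice. Python 3.11.15, numpy 2.4.6, pandas 2.3.3, matplotlib 3.10.9, R 4.3.3 and limma 3.58.1 were used.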

Additional observations from a re-analysis of the deposited data

How the results depend on the processing

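The number of members at least 1.5-fold higher was 6 and ranged from 4 (quantile normalization, cyclic loess and the deposited values) to 7 (normexp), and was 3 at 2-fold. Sod1 fell below 1.5-fold under quantile normalization, cyclic loess and the deposited values, and Pgd under these and the 75th percentile of detected probes. The number of members lower was 0, but 1 (Gsto1) under cyclic loess and 1 with the deposited values. Among further genes, 14 were higher and 14 lower, against 10 and 8 with normexp and 4 and 5 at 2-fold. The cause of these differences was not tested, apart from the stricter threshold itself. The members' median ran from 0.085 to 0.19, above that of all genes (-0.024 to 0.078 over the same alternatives). Of the values of single members under the alternatives, 7 lost and 3 gained 1.5-fold, 59 not past it moved by more than the median spot SD and the other 281 did neither. No call changed direction. Single spots and 1 array per diet limit every value, and no replicate could be left out. No paired analysis was possible because each diet has 1 array.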
